A study of Homo sapiens with 8 samples.

Results

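The BEX family (brain-expressed X-linked genes) was followed in A549, a human cell line grown from a lung adenocarcinoma. Its members were all the probe sets that the array's annotation ties to BEX1, BEX2, BEX3, BEX4 or BEX5 alone. There were 5 such probe sets, 1 for each of the 5 genes, among 41091 probe sets with a single gene (19775 genes) and 54675 in the deposited table. No probe set named a BEX gene together with another gene. The family was chosen by its log2 differences between media, in which BEX2 and BEX4 stood among the largest falls of all genes, so the glucose differences below are a description and carry no test.

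The 4 groups combined an siRNA (control or against SRC-1) with a medium (with or without glucose), and each held 2 arrays, labelled biological replicates. An siRNA is a short RNA that directs the destruction of a matching mRNA, and SRC-1 is the nuclear receptor coactivator encoded by NCOA1. The cells of all 8 arrays were transfected with the lipid reagent DharmaFECT 1, so no array stands for untransfected cells. They were held for 36 h in medium with 10% dialyzed serum before the medium with or without glucose was given. The labels do not state how long that medium was kept. The labels call the replicates biological but do not say whether they were separate cultures. A p-value here therefore covers the array-to-array spread, which may be technical. The targeted NCOA1 mRNA was 9.10-fold lower with SRC-1 siRNA in the presence of glucose and 8.78-fold lower in its absence. Epithelial identity was read from 5 markers. The keratins KRT8, KRT18 and KRT19 and the adhesion genes EPCAM and CDH1 all lay at or above the 78.5th percentile of probe sets.

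BEX proteins are small, largely unfolded adaptor proteins of placental mammals, most abundant in neural and endocrine tissue. BEX3, also called NADE or NGFRAP1, binds the neurotrophin receptor p75 and takes part in the cell death that this receptor can trigger. BEX1 binds the same receptor and links its signal to the cell cycle, BEX2 joins complexes of the transcriptional adaptor LMO2 and has been tied to tumour cell survival, and BEX4 binds tubulin and the tubulin deacetylase SIRT2. BEX5 is the least studied member. The genes lie near each other on the X chromosome, among genes of the related TCEAL family. Glucose withdrawal is known to trigger stress programmes of the endoplasmic reticulum (ER) and of amino acid starvation, driven in part by the transcription factors ATF4 and CHOP.

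BEX2 and BEX4 had much lower signals with glucose than without it, whichever siRNA was used, while BEX3 was slightly higher, and BEX1 and BEX5 kept low signals in every group. Signals are log2 values per probe set, on which a step of 1 is a doubling. Levels of different probe sets cannot be set against each other. Without glucose the BEX2 signal was 10.79 and 10.68 with control siRNA and 10.64 and 10.80 with SRC-1 siRNA. With glucose it was 7.38 and 7.47 with control siRNA and 7.51 and 7.41 with SRC-1 siRNA. The 4 arrays without glucose therefore lay between 10.64 and 10.80, and the 4 with glucose between 7.38 and 7.51, with no overlap. With control siRNA the group means were 10.74 ± 0.079 without and 7.43 ± 0.063 with glucose (SD, n = 2), a difference of -3.31 ± 0.083 (SE), or 9.93-fold. With SRC-1 siRNA the means were 10.72 ± 0.11 and 7.46 ± 0.068, a difference of -3.26 ± 0.083, or 9.56-fold. Even with glucose the BEX2 signal stood at the 72.3rd percentile of the probe sets with 1 gene. In such bulk RNA a lower signal through fewer transcripts per cell cannot be told apart from fewer cells that hold them.

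BEX4, the partner of tubulin, showed a difference of the same kind. Its signal without glucose was 7.18 and 7.11 with control siRNA and 6.98 and 7.15 with SRC-1 siRNA. With glucose it was 3.75 and 3.42 with control siRNA and 3.77 and 3.71 with SRC-1 siRNA. The arrays of the 2 media were again wholly apart, and the lowest array without glucose (6.98) lay far above the highest with glucose (3.77). The means with control siRNA were 7.14 ± 0.048 without and 3.59 ± 0.23 with glucose, a difference of -3.56 ± 0.11, or 11.8-fold. With SRC-1 siRNA they were 7.06 ± 0.12 and 3.74 ± 0.042, a difference of -3.33 ± 0.11, or 10.0-fold. With glucose the BEX4 signal lay below 4.80, the limit under which probe sets were called dim, at the 20.1st and 23.1st percentile with control and SRC-1 siRNA. BEX4 thus entered the tests only through its arrays without glucose, and with no detection calls a fold that ends in this range may be compressed. In the order of differences over 13584 genes from the largest fall, BEX4 held place 6 and BEX2 place 7 with either siRNA. Of all genes tested, 7 (0.0515%) were lower by at least 3 on the log2 scale with control siRNA, and BEX2 and BEX4 were 2 of them.

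**Figure D1:**
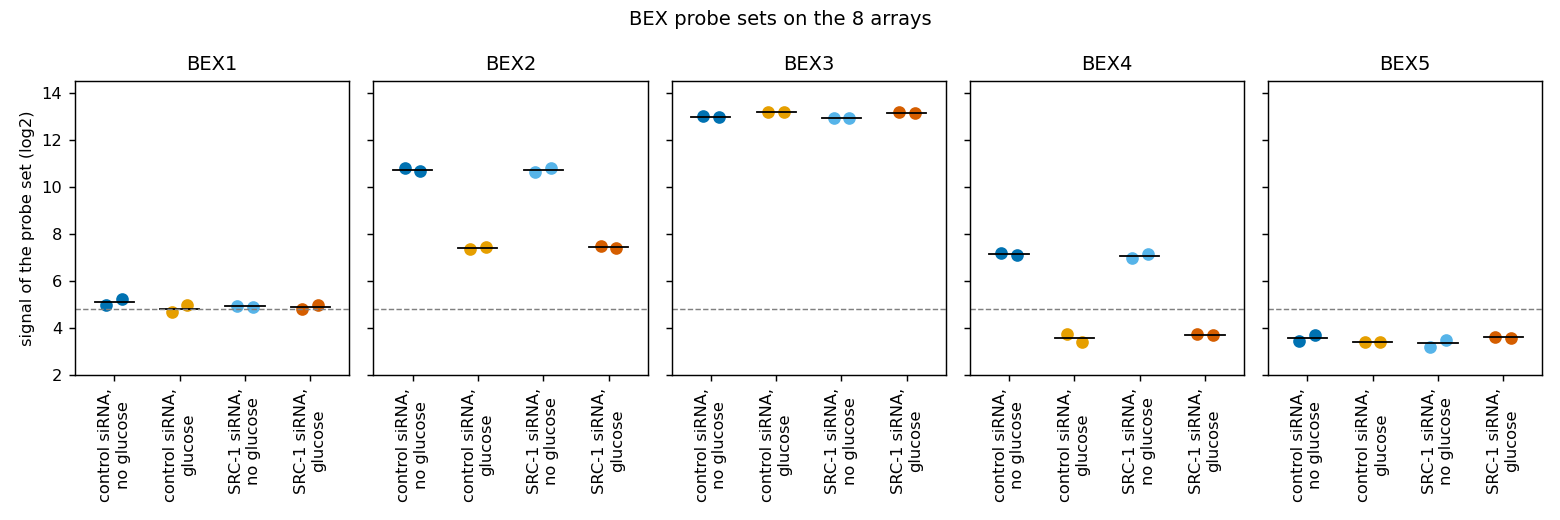
Signal (log2) of the 5 BEX probe sets on each of the 8 arrays, as points in 4 groups of 2, with the group mean as a line; the dashed line is the limit for dim probe sets (4.80). BEX2 and BEX4 fall into separate levels by medium, BEX3 stays near 13 in every group, and BEX1 and BEX5 lie near or below the dashed line. Only values within a panel can be compared.

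The promoters of BEX2 and BEX4 are shown because these members had the largest glucose differences of the family. All 5 BEX genes matched the RefSeq promoter table (GRCh38.p14), with 9 start sites. The 250 bases before the first start of each are written 5′ to 3′ on the gene's strand, and capitals mark the longest run of bases shared with another member, BEX4 for BEX2, BEX2 for BEX4, and BEX3 for BEX1, which is set beside them as a member with a small glucose difference.
BEX2, chrX:103310991-103311240, minus strand: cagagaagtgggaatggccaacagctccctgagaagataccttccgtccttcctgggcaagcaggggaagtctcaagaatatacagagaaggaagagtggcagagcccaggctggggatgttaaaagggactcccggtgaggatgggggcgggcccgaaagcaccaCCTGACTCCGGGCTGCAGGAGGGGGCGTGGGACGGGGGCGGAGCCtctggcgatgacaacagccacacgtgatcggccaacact
BEX4, chrX:103214842-103215091, plus strand: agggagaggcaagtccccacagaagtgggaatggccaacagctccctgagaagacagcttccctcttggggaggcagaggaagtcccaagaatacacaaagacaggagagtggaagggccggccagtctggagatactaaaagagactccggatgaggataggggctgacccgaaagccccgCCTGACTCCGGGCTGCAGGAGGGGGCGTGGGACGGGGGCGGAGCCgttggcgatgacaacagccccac
BEX1, chrX:103064172-103064421, minus strand: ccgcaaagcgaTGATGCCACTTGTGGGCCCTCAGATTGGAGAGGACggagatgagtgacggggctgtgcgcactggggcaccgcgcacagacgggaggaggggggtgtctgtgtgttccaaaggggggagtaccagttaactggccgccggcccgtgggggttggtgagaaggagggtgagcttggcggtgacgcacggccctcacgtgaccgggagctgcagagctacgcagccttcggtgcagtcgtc

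The BEX2 and BEX4 promoters are close copies of each other. In a global alignment of the BEX2 window with the window of the second BEX4 start, 214 of 246 aligned bases (87.0%) were identical, and 86.5% were with the first start. The shared run of 45 bases occurred in 3 of the 34943 promoter windows in the table, all of them windows of BEX2 or BEX4. BEX1 and BEX3 form another such pair, with 192 of 225 aligned bases (85.3%) identical between BEX1 and the second BEX3 start. The other 28 combinations of windows of different BEX genes had between 57.2% and 69.7% of aligned bases identical.

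Both strands of these windows were searched for 7 short motifs. The E-box CACGTG, a palindrome bound by several basic helix-loop-helix factors, was found in 4 of 9 BEX windows and in 6.32% of all windows. The BEX windows that hold it are pairs of close copies, so the matches are not independent and nothing is read from the share. The E-box began 19 bases before the BEX2 start and the second BEX4 start, and 47 bases before the BEX1 start and the second BEX3 start. Its part in the glucose differences was not tested. The first BEX4 start cuts through this motif, which is why the printed window holds only its first 3 letters. CCAAT was found in 5 of 9 BEX windows and in 32% of all windows, and in none of BEX2 or BEX4. Windows of the same gene can overlap, and in BEX3 and in BEX5 the same CCAAT site was counted in overlapping windows. These windows are therefore not independent, and nothing is read from the share. None of the 9 windows held the ATF4 and C/EBP composite element TGATGNAA (3.15% of all windows), the cAMP response element TGACGTCA (1.63%), the ER stress element (0.0744%), the XBP1 element TGACGTGG (0.615%) or the TATA box TATAAA (10.8%). A missing match says only that these letters are not in these windows. The ER stress element contains CCAAT, so a match to it is also a match to CCAAT.

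BEX3, the partner of the neurotrophin receptor p75, was bright on all arrays and slightly higher with glucose. Its signal without glucose was 13.00 and 12.96 with control siRNA and 12.95 and 12.93 with SRC-1 siRNA. With glucose it was 13.18 and 13.18 with control siRNA and 13.18 and 13.14 with SRC-1 siRNA. The arrays of the 2 media did not overlap, but the whole range over 8 arrays was 0.25. The difference was 0.20 ± 0.061 with control siRNA, or 1.15-fold, and 0.23 ± 0.061 with SRC-1 siRNA, or 1.17-fold. The BEX3 signal stood above the 99.4th percentile of probe sets in every group, so its difference may be compressed.

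BEX1 and BEX5 showed no difference of the size seen for BEX2 and BEX4. The BEX1 signal without glucose was 4.99 and 5.24 with control siRNA and 4.95 and 4.91 with SRC-1 siRNA. With glucose it was 4.68 and 4.97 with control siRNA and 4.81 and 4.99 with SRC-1 siRNA. The media overlapped over the 8 arrays, and the difference was -0.29 ± 0.12 with control siRNA and -0.029 ± 0.12 with SRC-1 siRNA. BEX1 passed the limit for dim probe sets narrowly, at a mean of 4.94 against 4.80. BEX5 did not pass it, with a mean of 3.49. The BEX5 signal was 3.44 and 3.70 without and 3.41 and 3.42 with glucose under control siRNA. Under SRC-1 siRNA it was 3.23 and 3.50 without and 3.63 and 3.60 with glucose. The glucose difference of BEX5 was -0.16 ± 0.12 with control siRNA and 0.25 ± 0.12 with SRC-1 siRNA, from a fit of every probe set. With 1 array left out, these values lay between -0.29 and -0.030 and between 0.12 and 0.39, and those of BEX1 between -0.43 and -0.15 and between -0.12 and 0.063. All 8 arrays thus had BEX5 in the dim range, and its values overlapped between media.

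Of the 4 BEX genes in the limma fit of 13584 genes, 2 (BEX2 and BEX4) were among the calls lower and 1 (BEX3) among the calls higher with glucose, under either siRNA. With control siRNA 45.2% of all genes were called, 23.6% higher and 21.6% lower. With SRC-1 siRNA 44.7% were called, 24.6% higher and 20% lower. All 4 members had separate arrays in the 2 media with control siRNA, as 71.9% of all genes did, and 3 did with SRC-1 siRNA, as 71.6% of all genes did. Over both siRNAs the 4 arrays without glucose were apart from the 4 with glucose for BEX2, BEX3 and BEX4, 3 of 4 members, as they were for 53.9% of all genes. Nothing is read from these counts, since the family was chosen with the same contrast in view. Within a medium the arrays of the 2 siRNAs overlapped for BEX2 and BEX4.

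**Figure D2:**
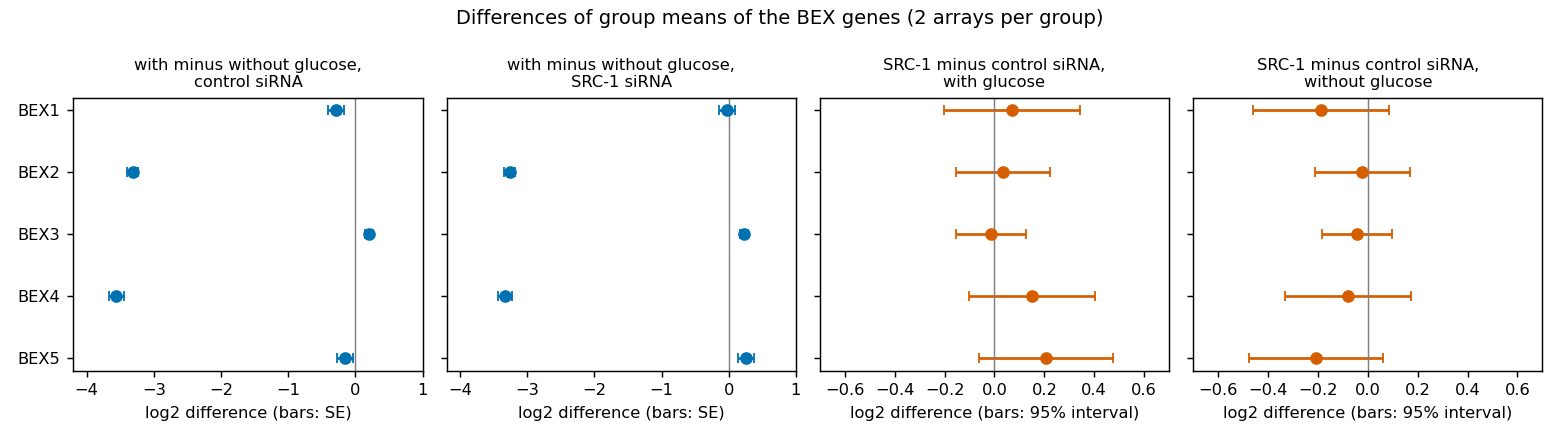
Differences of group means (log2) for the 5 BEX genes, with glucose minus without glucose for each siRNA (2 left panels, bars are SE) and SRC-1 siRNA minus control siRNA in each medium (2 right panels, bars are 95% intervals), 2 arrays per group. BEX2 and BEX4 lie between -3.56 and -3.26 in the glucose panels, and every interval in the siRNA panels spans 0. The horizontal scales of the left and right panels differ.

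The contrast of SRC-1 siRNA with control siRNA was not used in choosing the family, and it asks whether the level of each member depends on the coactivator. No BEX gene was called in either medium, averaged over both media or in the interaction, which asks whether the glucose difference depends on the siRNA (limma with Benjamini-Hochberg adjustment). With glucose 0 of 4 were called, against 0.00736% of all genes. Without glucose 0 of 4 were called, against 0.0221%. Averaged over media 0 of 4 were called, against 0.0294%, and in the interaction 0 of 4, against 0%. At an unadjusted p below 0.05 there were also 0 of 4 in each of these contrasts, where 781, 434, 674 and 465 genes of 13584 passed that level.

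The effect of SRC-1 siRNA on BEX2 was bounded most closely when averaged over media. It was 0.0060 ± 0.058 on the log2 scale (95% interval -0.13 to 0.14, adjusted p = 1, limma). BEX2 differed by 0.033 (interval -0.16 to 0.22) with glucose and by -0.021 (-0.21 to 0.17) without. BEX4 differed by 0.15 (-0.10 to 0.40) with glucose and by -0.079 (-0.33 to 0.17) without, and by 0.036 (-0.14 to 0.21) averaged. BEX3 differed by -0.014 (-0.15 to 0.13) with glucose and by -0.043 (-0.18 to 0.098) without. BEX4 lay below the limit for dim probe sets with glucose, so its interval there bounds the signal and not its mRNA. Without 1 array, that of control siRNA with glucose replicate 1, the BEX4 effect with glucose became 0.31 (unadjusted p = 0.014, adjusted p = 0.774, limma). The interval of BEX3 was the narrowest of the members tested.

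For BEX1 the effect of SRC-1 siRNA was 0.071 (-0.20 to 0.34) with glucose and -0.19 (-0.46 to 0.083) without. Without glucose both BEX1 arrays with SRC-1 siRNA lay below both with control siRNA, and the same was true of BEX3. Such a separation of arrays occurred in 29.2% of all genes, and 2 of the 4 BEX genes tested showed it. With glucose it occurred in 32.5% of all genes and in 0 of the 4 BEX genes tested. BEX5 was not among these 4 and lay in the dim range. Its arrays with glucose were also separate, at 3.41 and 3.42 with control siRNA and 3.63 and 3.60 with SRC-1 siRNA. In the fit of every probe set BEX5 differed by 0.21 (-0.062 to 0.48) with glucose and by -0.21 (-0.48 to 0.061) without.

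No member's glucose difference was called as different between the siRNAs. The interaction was 0.055 for BEX2 (95% interval -0.21 to 0.32), 0.23 for BEX4 (-0.13 to 0.59), 0.029 for BEX3 (-0.17 to 0.23) and 0.26 for BEX1 (-0.13 to 0.64), each with an adjusted p of 0.999 (limma). Leaving out 1 array of control siRNA with glucose moved it to 0.066 (without replicate 2) or 0.39 (without replicate 1) for BEX4, and to 0.12 (without replicate 1) or 0.40 (without replicate 2) for BEX1, none of them called. With 2 arrays per group, a dependence on SRC-1 within these intervals cannot be told from none. The intervals are not adjusted for the number of genes. In the interaction 465 genes had an unadjusted p below 0.05 by limma and 0 were called. A dependence outside these intervals could therefore also go uncalled. BEX5 had an interaction of 0.41 (0.034 to 0.79), with an unadjusted p of 0.036 and an adjusted p of 1 over 41091 probe sets by limma. Its arrays with glucose lay below those without under control siRNA and above them under SRC-1 siRNA, all in the dim range.

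The genes most like each member were found by the root mean square difference over the 8 arrays between log2 signals, each centred on the gene's own mean. Among 13584 genes the nearest to BEX2 was BEX4, and the nearest to BEX4 was BEX2, at a difference of 0.14. The next nearest to BEX2 were CRELD2, an ER stress gene (0.15), and the stress-induced transcription factor ATF3 (0.18). For BEX4 they were ATF3 (0.16) and CRELD2 (0.26). The glucose difference with control siRNA was -2.98 for CRELD2 and -3.67 for ATF3, on either side of those of BEX2 and BEX4. For BEX3 the nearest were POLR2E, a subunit of RNA polymerases (0.019), VAPB, an ER membrane protein (0.021), and RRAGA, a GTPase of amino acid sensing (0.023), with glucose differences between 0.19 and 0.22 with control siRNA. For BEX1 they were P4HA2, a collagen prolyl hydroxylase (0.053), TRIM46 (0.062) and EVX1 (0.064). BEX1 varied over 0.55 log2 units in all, while its replicates differed by up to 0.29. The measure rests on all 8 arrays together, which the genes share, and it holds the size of the glucose difference as well as its direction. The family was chosen by that difference, and only 7 of 13584 genes were lower by at least 3 with control siRNA. The likeness of BEX2 and BEX4 is therefore a description and not separate support. Whether their probe sets read each other's mRNA was not tested.

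**Figure D3:**
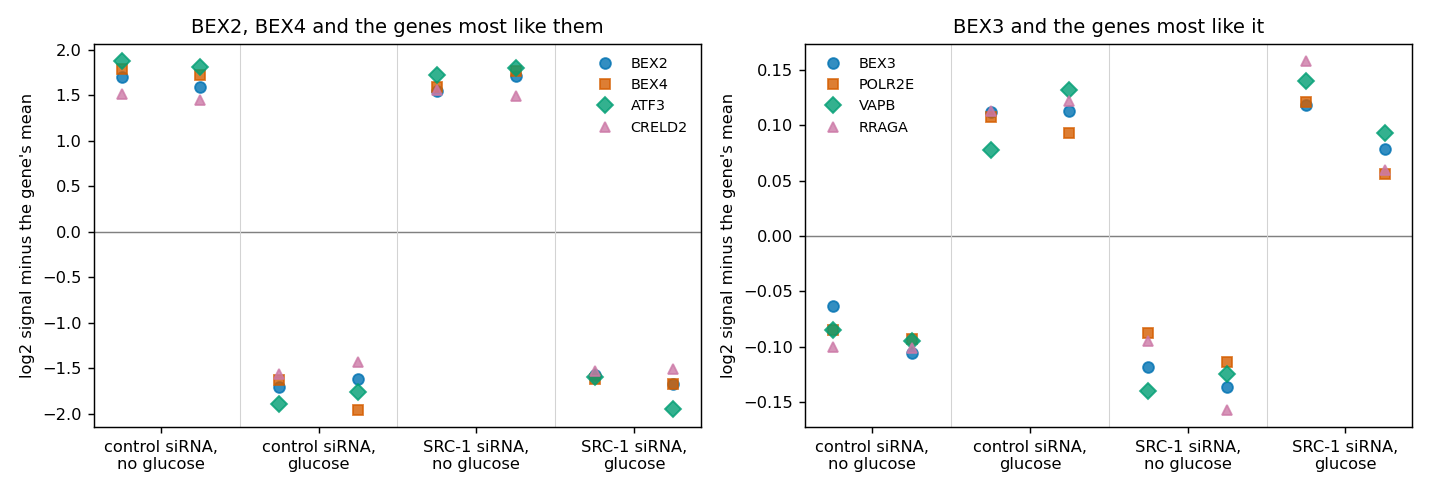
Log2 signal minus the gene's own mean over the 8 arrays (vertical axis) for BEX2, BEX4, ATF3 and CRELD2 (left) and for BEX3, POLR2E, VAPB and RRAGA (right); each point is 1 array, 2 per group along the horizontal axis. Over the 8 arrays together BEX2 and BEX4 lie at a root mean square difference of 0.14. They stand furthest apart on control siRNA with glucose replicate 2, at -1.61 for BEX2 and -1.96 for BEX4. The vertical scales of the panels differ.

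The neighbours of BEX2 and BEX4 on the X chromosome were measured too. In the RefSeq order of protein-coding genes in GRCh38.p14, BEX4 and BEX2 are parted by TCEAL8 and TCEAL5. TCEAL7 and TCEAL9 lie between BEX2 and BEX3. TCEAL8 differed by -0.21 ± 0.078 with glucose under control siRNA and TCEAL9 by 0.061 ± 0.073, and neither was called, while TCEAL5 and TCEAL7 were not tested. Of 16 protein-coding genes between BEX5 and BEX3 other than BEX genes, 4 were tested, with differences between -0.44 and 0.56. With 5 further protein-coding genes on each side, 9 neighbours were tested, with differences between -0.97 and 0.56 under control siRNA. Of these 9, 1 was higher and 5 were lower, beside 23.6% higher and 21.6% lower over all genes. Under SRC-1 siRNA 1 was higher and 3 were lower, beside 24.6% and 20%, as TCEAL4 (-0.12 ± 0.070) and MORF4L2 (-0.10 ± 0.063) were not called. The neighbour set was chosen after the BEX values were known. BEX4 and BEX2 lay below every tested neighbour by more than 2 log2 units.

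**Figure D4:**
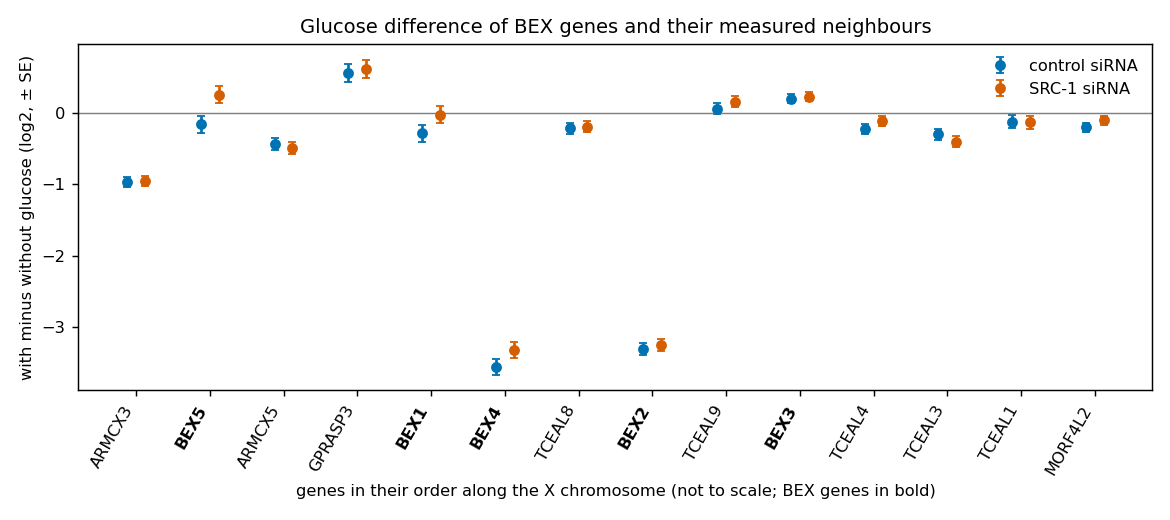
Glucose difference (with minus without glucose, log2, ± SE) of BEX genes (bold) and tested neighbouring genes in their order along the X chromosome, for control siRNA and SRC-1 siRNA (2 arrays per group). BEX4 (-3.56 and -3.33) and BEX2 (-3.31 and -3.26) lie below all the others, which stay between -0.97 and 0.62.

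Relatives and partners of the BEX genes were taken from lists of textbook membership. Medians are set against a median of 0.00088 over all genes with control siRNA, and calls against the 45.2% given above. Of 9 TCEAL genes, which encode small proteins related to the BEX proteins, 5 were tested and 0 were higher and 2 lower with glucose (median -0.21). TCEAL3 (-0.30 ± 0.073) and TCEAL4 (-0.22 ± 0.070) were the members called. With SRC-1 siRNA, 1 of 5 was lower (median -0.13), TCEAL3 (-0.40 ± 0.073), and TCEAL4 was not called (-0.12 ± 0.070). Of 9 ARMCX and GPRASP genes of the same chromosomal region, 4 were tested, 1 was higher and 3 were lower (median -0.37). They were ARMCX3, a mitochondrial outer membrane protein (-0.97 ± 0.069), GPRASP3 (0.56 ± 0.13), ARMCX5 (-0.44 ± 0.082) and ARMCX6 (-0.30 ± 0.062).

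Signalling partners of BEX3 and BEX1 did not share a direction. Of 15 genes of p75 signalling and BEX3 binding, 9 were tested, and 2 were higher and 3 lower with glucose (median -0.10). The neurotrophin receptor NTRK3 (0.52 ± 0.13) rose. SORCS2, a partner of p75 (-0.52 ± 0.099), and the kinase RIPK2 (-0.47 ± 0.065) fell. With glucose and control siRNA the SORCS2 mean (4.83) lay next to the limit for dim probe sets. With SRC-1 siRNA the difference was -0.32 ± 0.099 for SORCS2, -0.56 ± 0.065 for RIPK2 and 0.39 ± 0.13 for NTRK3. The receptor gene NGFR itself did not pass the limit for dim probe sets. Among 6 tested genes of the LMO2 complex, in which BEX2 takes part, 1 was higher and 0 lower (median 0.063, and -0.019 with SRC-1 siRNA), GATA2 (0.53 ± 0.15). LMO2 (0.13 ± 0.094), TCF3 (0.17 ± 0.085) and TAL1 (-0.15 ± 0.11) were not called. The LMO2 signal lay close to the limit for dim probe sets, with group means between 4.99 and 5.27. Its difference with SRC-1 siRNA was -0.21 ± 0.094, also not called.

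All 5 partners of BEX4 on the list were called with glucose, 4 higher and 1 lower (median 0.27), where 45.2% of all genes were called with control siRNA. The tubulin genes TUBA1A (0.47 ± 0.077) and TUBA1C (0.27 ± 0.062) and the mitotic kinase PLK1 (0.28 ± 0.068) rose, and SIRT2 (-0.33 ± 0.099) fell. The tubulin probe sets carry _s_at or _x_at names and may read more than 1 tubulin gene, so the tubulin calls may not be separate readings. Among 8 genes of the ATF4 and CHOP branch, set here as a reference for the stress of glucose withdrawal with their behaviour in these arrays already known, 8 were lower with glucose (median -1.97). DDIT3, which encodes CHOP, differed by -4.40 ± 0.086, ATF3 by -3.67 ± 0.11, PPP1R15A by -2.49 ± 0.090 and ASNS by -2.30 ± 0.073. With SRC-1 siRNA all 8 were again lower (median -1.93, against 0.0059 over all genes). The differences of BEX2 and BEX4 thus lay between those of PPP1R15A and ATF3.

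Markers of neuronal and neuroendocrine cells, in which BEX genes are abundant, were measured beside them. Of 8 markers, 6 were tested, and 3 were higher and 2 lower with glucose under control siRNA, or 3 and 1 under SRC-1 siRNA, where 45.2% and 44.7% of all genes were called. ENO2, NEFL and TUBB3 were higher by between 0.40 and 0.74, UCHL1 differed by -0.18 and -0.22, and INSM1 was dim at a mean of 2.68. CHGA differed by -0.37 with control siRNA and by 0.025 with SRC-1 siRNA. The summed log2 signal of the 7 markers with a probe set lay between 54.1 and 54.8 without and between 55.7 and 56.3 with glucose. RNA integrity, read as the 3' minus 5' signal of GAPDH, lay between 0.12 and 0.14 without and between 0.14 and 0.17 with glucose, and that of beta-actin between 0.41 and 0.54 and between 0.51 and 0.64. The part of these shifts in the BEX differences was not tested.

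BEX1 and BEX2 encode closely similar proteins, and the gene table lists BEX2 as a synonym of BEX1 and BEX1 as a synonym of BEX2. The BEX1 and BEX3 probe sets were designed on accessions that the table gives for those genes, while those of BEX2, BEX4 and BEX5 matched through the gene identifier only. BEX3 and BEX4 were read by probe sets with names in _s_at, which can bind more than 1 transcript, and how far any probe set reads a related BEX mRNA was not tested.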

How the data were processed

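RNA of A549 cells in 4 groups of 2 arrays was labelled with biotin and measured on a genome-wide Affymetrix 3' expression array, per the labels' protocols. The values of the table the authors deposited are log2 signals, 1 for each probe set. The base was inferred from dilution spikes, which stood 1.94 and 2.00 units apart, and array medians lay between 4.97 and 5.01. Background correction, summarization and normalization are not given in the sources used here. The number of arrays limits the precision.

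Probe sets tied to 1 gene by the platform annotation were kept where their mean reached the 40th percentile (log2 4.80), and the brightest stood for its gene, leaving 13584 genes. All 8 arrays entered 1 limma fit (limma 3.58.1, R 4.3.3) with a mean per group, moderated two-sided tests (eBayes) and Benjamini-Hochberg adjustment over all genes at 0.05. BEX5, below the limit, comes from a fit of all 41091 probe sets. The fit was tested on simulated data. Promoter windows were aligned with Biopython 1.88. With 2 arrays against 2, the smallest two-sided p of an exact permutation test is 0.333.

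The members, lists, motifs and comparisons were chosen with earlier results of these data known. Named are the 5 BEX genes, NCOA1, up to 4 genes per list with the largest glucose difference under control siRNA (of the p75 list, 1 of these is not reported here), the 3 genes most like each tested member, cell type markers, and neighbours on the X chromosome. A few further list members are named for context after their values were seen. Replicate numbers did not pair the arrays. Alternatives were other normalizations, filters, probe set rules, priors, weights and samples, a replicate block, and leaving out each array.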

Additional observations from a re-analysis of the deposited data

How the results depend on the processing

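No BEX gene tested was called for SRC-1 siRNA in either medium under 19 alternatives, or for the averaged effect and the interaction under 18, and the smallest adjusted p was 0.695 (limma). BEX2 differed with glucose by between -3.37 and -3.26 under control siRNA and between -3.34 and -3.18 under SRC-1 siRNA, BEX4 between -3.72 and -3.39 and between -3.41 and -3.24, and BEX3 between 0.18 and 0.22 and between 0.21 and 0.25. The small differences were less steady, with BEX1 between -0.43 and -0.15 and between -0.12 and 0.063, and BEX5 between -0.29 and -0.030 and between 0.12 and 0.39, the ends of each range with 1 array left out. BEX1 gave no value with the filter at the 60th percentile, BEX4 none there or without _s_at and _x_at probe sets, and BEX3 none without the latter. Of 342 effects of SRC-1 siRNA and interactions of single members, 24 changed sign, none of them called. The averaged effect on BEX5 became 0.010 with quantile normalization. The other changes of sign came from leaving out an array. With glucose the ranges were -0.072 to 0.21 for BEX1, -0.015 to 0.081 for BEX2, -0.034 to 0.0061 for BEX3 and -0.013 to 0.31 for BEX4. Without glucose they were -0.31 to -0.067 for BEX1, -0.10 to 0.058 for BEX2, -0.16 to 0.0073 for BEX4 and -0.35 to -0.068 for BEX5. Averaged they were -0.13 to 0.013 for BEX1, -0.034 to 0.046 for BEX2, -0.046 to 0.12 for BEX4 and -0.070 to 0.069 for BEX5, and the interaction ranged from -0.025 to 0.13 for BEX2 and from 0.27 to 0.55 for BEX5.

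Counts over all genes moved more. For SRC-1 siRNA without glucose, 3 genes were called, and 1 with no filter, 1 with the replicate block, 1 with only the groups compared, 5 with a prior that follows mean expression and between 1 and 2 with an array left out. With glucose, 1 was called, and 2 with the filter at the 60th percentile, 3 with that prior and 4 over every probe set. Averaged, 4 were called, and 7 with that prior and between 2 and 3 with an array left out. For glucose with control and SRC-1 siRNA, 9890 and 9601 of 41091 probe sets were called over every probe set, against 6142 and 6070 of 13584 genes. These counts are of unlike units, and the share called was lower over every probe set. The cause of the changes in these counts was not tested. Deviations of same-numbered arrays correlated between -0.096 and 0.12 over 6 combinations of groups, with 1 above 0.1, and the block changed no BEX call. No detection calls were used, so what the low signals of BEX1, of BEX5 and of BEX4 with glucose can show is limited.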
